A study of Mus musculus with 22 samples.

Results

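γH2AX, the phosphorylated form of the histone H2AX, was compared between testes of mice carrying 3 Robertsonian translocations and testes of mice carrying 1. The members are 6 of the 22 libraries of the series, taken by their titles: 3 labelled 3Rb and 3 labelled 1Rb_P, all anti-γH2AX ChIP-seq of whole testis at 4 weeks. 3Rb mice were F1 of B6.SPRET7MOLF12 and RBF/Dnj. 1Rb_P mice were F1 of C57BL/6J and the strain CBy.RBF-Rb(8.12)5Bnr/J, so the groups differ in both parental strains as well as in translocations. Both groups are heterozygous carriers and share the translocation that joins chromosomes 8 and 12. The further joined pairs of 3Rb, 1 with 3 and 9 with 14, are not in the labels and are taken from what is known of RBF/Dnj mice. The antibody was the same in both groups (Millipore, clone JBW301). Replicates are numbered without a statement on animals, and the spread behind each p-value is that between libraries, which may be technical. The edgeR and limma tests used below share part of that spread across windows, bands or chromosomes.

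Robertsonian translocations join the long arms of 2 mouse chromosomes at their centromeres. In a heterozygous carrier the joined chromosome has to pair with 2 free partners in meiosis, and the stretches next to the centromeres often pair late or not at all. Unpaired chromosome axes recruit the ATR kinase, which phosphorylates H2AX on the surrounding chromatin. The same system coats the unpaired X and Y of pachytene spermatocytes, the sex body. Mouse chromosomes have their centromere at the start of the sequence, so distance along the assembly is distance from the centromere end. Distances start at 3 Mb, where the windows used here begin.

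The values were read counts in 50 kb windows of mm10. Library totals were 46010078 to 56385465 counts, and the median window held 635 to 770, which gives a counting error of 3.60 to 3.97%. X held 17.7 to 18.9% of the counts in these 6 libraries, against 3.16 to 3.17% in the 3 inputs, so the sex body mark is present in both groups. Chi-square per degree of freedom between replicates was 1.37 to 2.16, so none was a copy of another. In a mixed tissue, a difference may come from more cells of one stage or from more signal per cell, and these cannot be told apart here. Counts are given as CPM, scaled to the library total after TMM correction, and differences as log2 of 3Rb over 1Rb_P with their standard error. A call is an edgeR quasi-likelihood adjusted p under 0.05 (Benjamini-Hochberg over all windows, n = 3 per group).

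Differences were widespread and mostly small. Of 48016 autosomal windows, 36.7% were called, of which 8949 were called higher in 3Rb (18.6%) and 8671 lower (18.1%). The median size was 0.19 among the windows called higher and 0.20 among those called lower. Large differences were mostly gains: 1047 higher windows and 140 lower ones passed 0.5 log2 units, and 64 against 6 passed 1. Scaled by library totals alone, the autosomal counts were 6793 higher and 10035 lower.

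The gains were densest at the centromere ends of the chromosomes that are joined in 3Rb and free in 1Rb_P. With windows of unusual input left out, these ends (3 to 13 Mb of 1, 3, 9 and 14) held 761 of the 8931 higher autosomal windows. Most gains thus lay elsewhere. In the proximal 10 Mb (3 to 13 Mb) of 1, 3 and 9, all 599 tested windows were called higher, against 18.6% over the autosomes, with a median of 0.71. In the same stretch of 14, 162 of 200 were higher and 2 lower, with a median of 0.38. Next to the centromeres of 8 and 12, joined in both groups, the difference had the other sign: 194 of 200 windows of 8 and 100 of 199 of 12 were lower, and 1 was higher. In the proximal 10 Mb of the other 13 autosomes 587 of 2584 windows were higher (22.7%) and 279 lower (10.8%), with a median of 0.04.

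**Figure D1:**
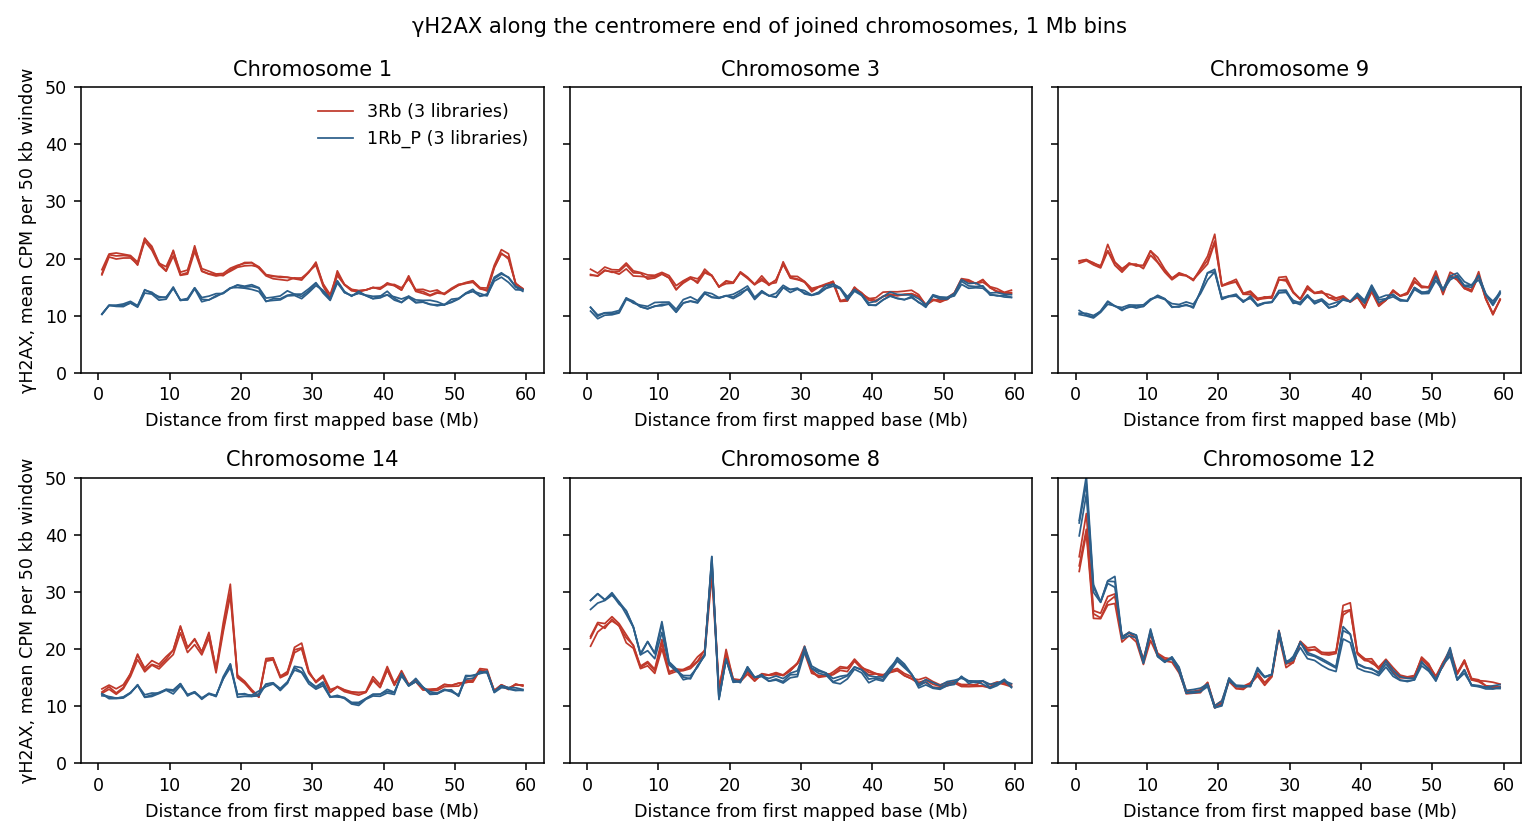
Mean γH2AX CPM per 50 kb window in 1 Mb bins (vertical axis) against distance from the first mapped base at the centromere end (horizontal axis, Mb, where 0 is 3 Mb of the assembly) for chromosomes 1, 3, 9, 14, 8 and 12, with 1 line per library. The 3Rb lines lie above the 1Rb_P lines from the start on 1, 3, 9 and 14, and below them at the start of 8 and 12.

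On chromosome 1 the first 5 Mb (3 to 8 Mb) held 19.5, 19.9 and 20.2 CPM per window in the 3 libraries of 3Rb, and 11.6, 11.5 and 11.7 in those of 1Rb_P. The groups were far apart, and within each the libraries lay within 1 CPM. The log2 difference was 0.78 ± 0.01 (SE; edgeR adjusted p over 132 bands 2.9e-16). It fell to 0.62 in the band of 8 to 13 Mb, then to 0.41 (13 to 23 Mb), 0.33 (23 to 33 Mb) and 0.13 (33 to 43 Mb). From 43 to 63 Mb it stood at 0.20, and beyond 63 Mb at −0.01, which did not pass the test. The longest unbroken run of windows called higher in the genome lay here, from 3000001 to 34400000, with 620 called windows and at most 1 window missing in between at any point.

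Chromosome 3, the partner of 1, had 17.4, 17.5 and 18.02 CPM per window at 3 to 8 Mb in 3Rb and 10.6, 10.2 and 10.7 in 1Rb_P. The difference of 0.75 ± 0.02 was close to that of 1, and all 100 windows of this band were called higher on both. Along the next 4 bands, up to 43 Mb, it was 0.53, 0.37, 0.24 and 0.04.

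Chromosome 9 showed the largest difference of the 132 bands. Its 3 to 8 Mb band held 19.5, 19.9 and 19.7 CPM per window in 3Rb and 10.8, 10.5 and 10.8 in 1Rb_P, a log2 difference of 0.88 ± 0.02. The value fell to 0.70, 0.46, 0.17 and 0.11 over the next 4 bands and was −0.01 at 43 to 63 Mb. One window at the start of 9, with very high counts also in the inputs, held 2.20 to 3.08% of all counts and was left out of this sum. With windows of unusual input kept, the 3 to 8 Mb difference was 0.30.

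Chromosome 14, the partner of 9, had another shape. Its 3 to 8 Mb band held 13.1, 13.4 and 13.8 CPM per window in 3Rb and 11.8, 11.7 and 11.8 in 1Rb_P, a difference of only 0.19 ± 0.02, with 63 of 100 windows higher. The difference then grew to 0.49 at 8 to 13 Mb and to 0.70 ± 0.02 at 13 to 23 Mb, where the libraries of 3Rb held 20.7, 21.6 and 21.4 CPM and those of 1Rb_P 12.96, 13.02 and 13.1. Its highest 1 Mb bin lay at 18 to 19 Mb (0.89), against 4 to 5 Mb on 1 and 5 to 6 Mb on 3 and 9. The difference in shape between 14 and the others was not tested. At 3 to 8 Mb of 14, H3.3 in other libraries of the series was lower in 3Rb (median −0.16), whereas on 1, 3 and 9 it was higher there (0.10 to 0.16).

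Every distance band of 14 was called higher, though the distal differences were small. Of the 2435 tested windows of 14, 52.0% were higher and 4.56% lower. The distal bands had differences of 0.06 (43 to 63 Mb) and 0.10 (beyond 63 Mb, edgeR adjusted p = 4.6e-05). Chromosome 13, joined in neither group, had a like value beyond 63 Mb (0.08, edgeR adjusted p = 9.7e-05), with 420 of 1145 windows higher. The sum over 14 held 16.0, 16.1 and 16.0 CPM per window in 3Rb and 13.95, 14.2 and 14.2 in 1Rb_P. No other autosome sum differed as much: 14 stood at 0.18, 9 at 0.12, 1 at 0.11, 3 at 0.08 and 13 at 0.06. With windows of unusual input kept, 9 stood at 0.187 and 14 at 0.193.

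On chromosome 8 the 3 to 8 Mb band held 23.3, 24.3 and 23.9 CPM per window in 3Rb and 29.0, 28.9 and 28.2 in 1Rb_P. Both groups stood far above the distal part of the same chromosome, at 13.2 to 13.8 CPM, so the band was high in both and lower in 3Rb. The difference was −0.27 ± 0.02 at 3 to 8 Mb (adjusted p = 5.3e-10) and −0.23 at 8 to 13 Mb. From 13 to 23 Mb it was 0.01, and it was slightly above 0 at 23 to 43 Mb.

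Chromosome 12 started higher still, with 30.4, 32.4 and 31.1 CPM per window in 3Rb and 36.4, 36.8 and 35.3 in 1Rb_P at 3 to 8 Mb. Its difference there was −0.21 ± 0.02 (adjusted p = 2.8e-07), then −0.04 at 8 to 13 Mb, and −0.01 at 13 to 23 Mb. With windows of unusual input kept it was −0.09 at 3 to 8 Mb. A second feature lay farther out: at 33 to 43 Mb the 3Rb libraries held 20.9, 21.3 and 20.8 CPM and the 1Rb_P libraries 18.4, 19.4 and 19.4. That difference was 0.14 ± 0.02, with 116 of 200 windows higher. The B6.SPRET7MOLF12 parent of 3Rb names chromosomes 7 and 12 in its strain label, so strain and translocation cannot be told apart on 12.

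Relative to the pooled inputs and to the distal windows of the unjoined autosomes, the proximal 10 Mb of 1, 3 and 9 stood at a log2 of 0.54, 0.57 and 0.59 in the 3Rb libraries and at −0.16, −0.19 and −0.15 in those of 1Rb_P. The B6 library, from C57BL/6J testis without a translocation, stood at −0.16, inside the 1Rb_P range, although it is 1 library under another supplier name for the antibody. For 8 and 12 the libraries of 3Rb stood at 0.80, 0.87 and 0.85, those of 1Rb_P at 1.02, 1.02 and 0.98, and B6 at 0.02. So the joined ends of 1, 3 and 9 in 3Rb stood below those of 8 and 12 in either group. Each pair of groups was separated without overlap, which gives an exact permutation p of 0.1, the smallest that 3 against 3 allows.

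The H3.3 and input libraries moved far less at these ends. In the proximal 10 Mb of 1, 3, 9 and 14 the median H3.3 difference between 3Rb and 1Rb was 0.09, and the median log2 ratio of the Cg input (B6.SPRET7MOLF12, the maternal strain of 3Rb) over the B6 input was 0.07, against 0.64 for γH2AX. In the proximal 10 Mb of 8 and 12 the values were −0.05 and −0.01, against −0.20. No input of a 3Rb animal was used here.

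Ratios within a library do not depend on scaling between libraries. The log2 ratio of mean counts per window in the proximal 10 Mb over the rest of the same chromosome was called higher in 3Rb on 13 of 19 autosomes (68.4%) and lower on 2 (10.5%) by limma, adjusted over 19. On 9 it was 0.41, 0.42 and 0.43 in 3Rb and −0.30, −0.34 and −0.28 in 1Rb_P, a difference of 0.73 ± 0.02, or 0.26 with windows of unusual input kept. The differences of 1 (0.63 ± 0.01) and 3 (0.59 ± 0.02) were of like size. In each of these 3 chromosomes the proximal part was below the rest in 1Rb_P and above it in 3Rb. The same held on 4 (means −0.09 and 0.07) and 13 (−0.05 and 0.03), which are joined in neither group.

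**Figure D2:**
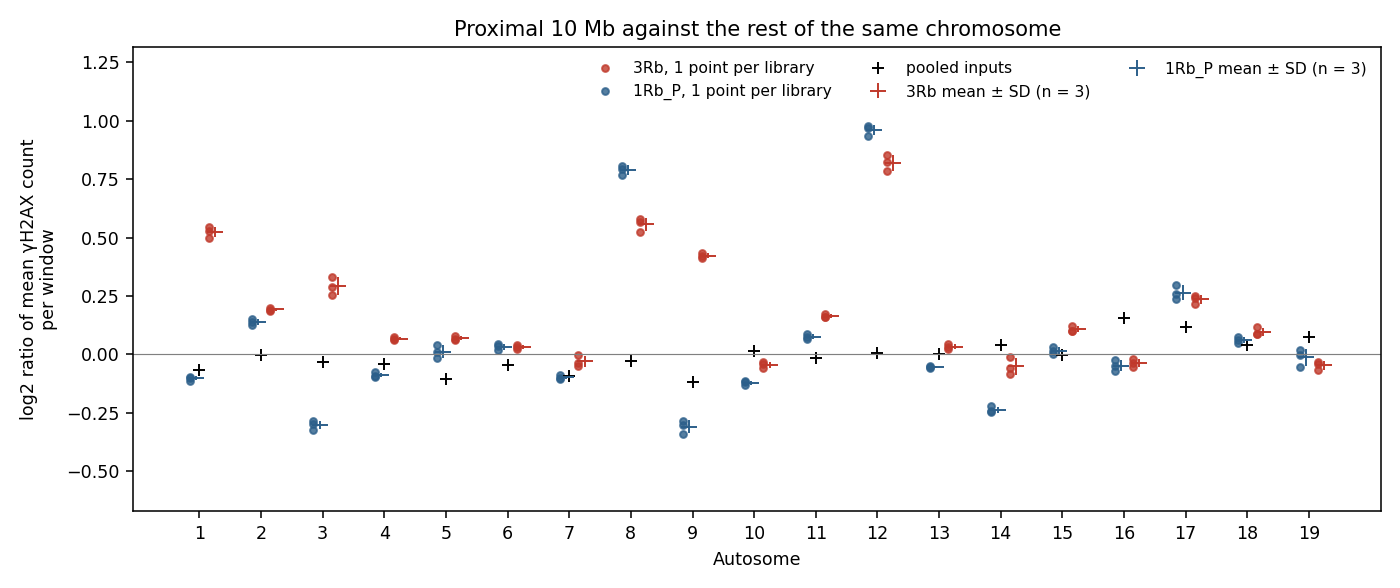
Log2 ratio of mean γH2AX count per window in the proximal 10 Mb over the rest of each autosome (vertical axis) for the 19 autosomes (horizontal axis). Points are libraries, crosses with bars are means ± SD (n = 3), and black plus signs are the pooled inputs. Chromosomes 1, 3 and 9, and by less 4 and 13, change from below 0 in 1Rb_P to above 0 in 3Rb, and 8 and 12 stand highest in both groups.

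On 14 the ratio was −0.08, −0.06 and −0.01 in 3Rb and −0.22, −0.25 and −0.24 in 1Rb_P, so it rose but stayed below 0. That difference (0.18 ± 0.02) was of the size seen on 4 (0.16 ± 0.01), which is in no translocation of either group. With only the proximal 5 Mb the difference of 14 was 0.01 (adjusted p = 0.56), and with 20 Mb it was 0.44. On 8 and 12 the ratio was lower in 3Rb, by −0.23 ± 0.02 and −0.14 ± 0.02. With the spread taken from all 9 carrier libraries, which include 1Rb_M, whose 3 libraries held 12.3 to 18.9% of their counts on X, 8 and 12 were no longer called (adjusted p = 0.077 and 0.39). Their 3 to 8 Mb bands were not called either (adjusted p = 0.085 and 0.31), and 56 of 200 windows of 8 and 0 of 199 of 12 were lower. At an unadjusted p under 0.05 edgeR then had 119 and 2, and DESeq2 on the 6 libraries called 188 and 93.

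Among the unjoined autosomes the proximal differences were small. Besides 4, the ratio was higher on 2, 5, 7, 10, 11, 13, 15 and 18, by 0.03 to 0.09. It was not called on 6, 16, 17 and 19. The sign of 2 and 11 turned with windows of unusual input kept (−0.04 and −0.0073), and that of 7 with a proximal part of 5 or 20 Mb (−0.0042 and −0.02). The call on 18 was lost without 1Rb_P replicate 2, 1Rb_P replicate 3 or 3Rb replicate 2 (adjusted p 0.10 to 0.17). Of the 132 bands, 58 were higher (43.9%) and 29 lower (22%). All 16 bands of 1, 3, 9 and 14 from 3 to 33 Mb were among the higher ones, whereas of the 52 bands at those distances on the unjoined autosomes 25 were higher and 9 lower. Scaled by library totals, the split of bands was 40 higher and 38 lower, and with all 9 carrier libraries 35 and 19.

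In 1 Mb bins, the length of each stretch could be read from the centromere end. Of 2402 autosomal bins, 35.3% had all 3Rb libraries above all 1Rb_P libraries and 33.1% the reverse. Such bins ran unbroken from 3 Mb to 41 Mb on 9, to 36 Mb on 3, to 35 Mb on 1 and to 25 Mb on 14. The longest run from the start on an unjoined autosome was to 18 Mb on 4, followed by 12 Mb on 15. In the other direction bins ran unbroken to 15 Mb on 8 and to 9 Mb on 12.

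Whole-chromosome sums placed 5 of 21 chromosomes higher in 3Rb (23.8%) and 9 lower (42.9%). The 5 were 1, 3, 9, 13 and 14. Lower were 4, 5, 7, 8, 11, 12, 16, 17 and Y. Of these Y differed by −0.22 ± 0.04 and the 8 autosomes by −0.02 to −0.05, so apart from Y the losses were far smaller than the gains of 14 and 9. Over all tested windows of Y the median γH2AX difference was −0.58, and its cause was not tested. For H3.3 the median was −0.72, but in separate libraries at 6 weeks, with windows of unusual input left out. Its reference was the other 1Rb cross (1Rb_M), so the 2 medians are not the same comparison. Chromosome 12 (−0.02) lost its call without 1Rb_P replicate 2 or 3Rb replicate 1 (adjusted p 0.11 and 0.14), and with windows of unusual input kept (−0.01, adjusted p = 0.14). Chromosome 4 (−0.02) lost it without 1Rb_P replicate 2 or 3Rb replicate 2 (adjusted p 0.065 and 0.068). With DESeq2, 6 were higher and 7 lower. X did not pass (0.06 ± 0.03, adjusted p = 0.12), but passed without 3Rb replicate 1 (0.10, adjusted p = 0.0050).

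**Figure D3:**
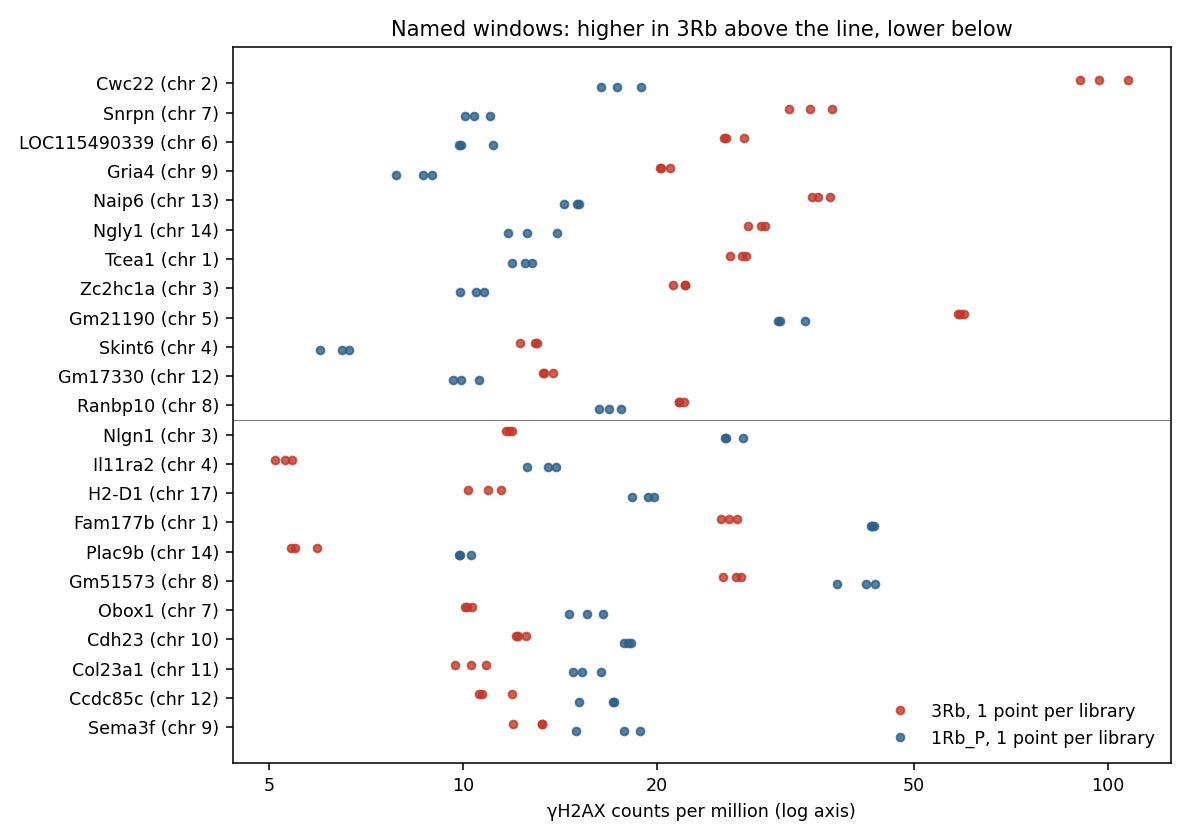
γH2AX CPM (horizontal log axis) in each library for the named windows (vertical axis, with 1 gene of each window and its chromosome). Windows higher in 3Rb are above the line and lower ones below it, and by the rule that chose them the 2 groups do not overlap in any.

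Named windows were the strongest called regions with a protein-coding gene, at most 1 per chromosome, plus the best region on each joined chromosome. The 4 gains on 1, 3, 9 and 14 lay inside the long proximal runs of called windows. The 4 losses named on these chromosomes lay outside those runs. Of these losses, Nlgn1 (3) still lay within the unbroken stretch of higher 1 Mb bins, from 3 to 36 Mb. The window of Gria4, a glutamate receptor subunit (9, 4500001 to 4550000), held 20.2, 20.97 and 20.3 CPM in 3Rb and 7.89, 8.67 and 8.95 in 1Rb_P. This was a log2 difference of 1.27 ± 0.05 (edgeR adjusted p = 2.2e-67), with an H3.3 difference of 0.28. The window of Ngly1, which removes sugar chains from misfolded glycoproteins (14, 16250001 to 16300000), held 27.7, 29.4 and 29.0 CPM against 11.8, 14 and 12.6, or 1.16 ± 0.05.

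Tcea1, a transcription elongation factor, had its best window at 4850001 to 4900000 of chromosome 1. It held 25.9, 27.5 and 27.1 CPM in 3Rb and 11.9, 12.5 and 12.8 in 1Rb_P, a difference of 1.11 ± 0.05. On 3, the window of Zc2hc1a (7500001 to 7550000) stood at 1.07 ± 0.05. The H3.3 difference was 0.01 at Ngly1 and Tcea1, where it was not called, and 0.15 at Zc2hc1a.

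Gains outside the joined chromosomes are given beside H3.3 and the inputs. The largest was at Cwc22, a splicing factor (2, 77900001 to 77950000), with 90.6, 97.0 and 107.6 CPM in 3Rb and 17.3, 16.4 and 18.9 in 1Rb_P. Its γH2AX difference of 2.49 ± 0.06 came with an H3.3 difference of 2.34 in separate libraries at 6 weeks. Naip6, an innate immune sensor (13), had 1.27 in both marks. LOC115490339 (6) had 1.34 in γH2AX and 1.10 in H3.3, and Skint6 (4) 0.99 and 0.77. Gm21190 (5) had 0.89 in γH2AX and only 0.20 in H3.3, with a Cg over B6 input ratio of 0.81. The input titled 1Rb_M, labelled with the cross of 1Rb_P, was also set over the B6 input. Its log2 ratio was −0.58 at Skint6, 0.53 at Gm21190, and 0.06 to 0.16 at Cwc22, Naip6 and LOC115490339. Cwc22, Naip6, Skint6 and Gm21190 belong to multicopy or closely related families, so their reads are uncertain where copies are near-identical, and copy number was not tested.

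The window of Snrpn and Snurf, imprinted genes expressed from the paternal copy (7, 59950001 to 60000000), held 34.5, 32.0 and 37.3 CPM in 3Rb and 10.4, 10.1 and 11.03 in 1Rb_P. The difference was 1.72 ± 0.06 for γH2AX, 0.84 for H3.3 and 0.31 for the Cg over the B6 input. The strain label of the B6.SPRET7MOLF12 parent names chromosome 7 too. Strain cannot be told apart from other differences between the groups on 7, and imprinting was not tested. The best regions higher on 8 and 12 were weak, at Ranbp10 and Tsnaxip1 (8, 0.37) and Gm17330 (12, 0.43).

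Among named losses, Nlgn1, a synaptic adhesion molecule (3, 25500001 to 25550000), held 11.8, 11.9 and 11.6 CPM in 3Rb and 27.2, 25.5 and 25.6 in 1Rb_P. It fell by 1.15 ± 0.05 in a band of 3 that was higher as a whole, and H3.3 there was −0.80. Il11ra2 and Ccl27b (4, −1.34) and H2-D1, an MHC class I gene, with Ddx39b (17, −0.82) had H3.3 differences of −0.58 and −0.35. Fam177b and Brox (1, −0.74), Gm51573 and Gm51591 (8, −0.65) and Obox1 (7, −0.61) had H3.3 differences of −0.59, −0.29 and −0.53. Plac9b (14) had −0.84 in γH2AX and −0.11 in H3.3, which was not called, and its Cg over B6 input ratio was −0.62. Il11ra2, H2-D1, Plac9b, Gm51573 and Obox1 have close relatives or copies, so their reads are uncertain too. The 1Rb_M over B6 input ratio was 0.67 at Fam177b and Brox, 0.51 at H2-D1 and 0.28 at Obox1. It was −0.44 at Il11ra2, −0.53 at Plac9b, 0.13 at Nlgn1 and −0.02 at Gm51573. The Fam177b and Brox window held 1777, 436 and 3041 counts in the Cg, B6 and 1Rb_M inputs. Their median windows held 773, 203 and 898, so reads there are uncertain as well, and copy number was not tested.

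At 4 more named losses H3.3 differed by −0.08 to −0.14 and was not called, as at Plac9b. They were Cdh23, a cadherin of hair cell tip links, with Vsir (10, −0.55), Col23a1, a collagen (11, −0.59), Ccdc85c with Ccnk (12, −0.57) and Sema3f, an axon guidance factor, with Slc38a3 (9, −0.42). At Cdh23 the libraries held 12.1, 12.5 and 12.2 CPM in 3Rb and 18.2, 18.1 and 17.8 in 1Rb_P. These windows hold 1 to 3 genes each.

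The upstream sequences below are shown because the next comparison sorts windows by gene number and promoter base content. They are the 200 bases before the start of 5 genes (RefSeq, GRCm38.p6), written 5′ to 3′ along the gene's strand with CG pairs in capitals. Gria4, Ngly1 and Olfr720 start in windows that rose in 3Rb, all within the long proximal runs of 9 and 14. Ccdc85c and Eef2 start in windows that fell. Olfr720, an olfactory receptor gene on 14, and Eef2, the ribosomal elongation factor on 10, are the members of their lists with the smallest p.
Gria4, minus strand, chr9:4796235-4796434: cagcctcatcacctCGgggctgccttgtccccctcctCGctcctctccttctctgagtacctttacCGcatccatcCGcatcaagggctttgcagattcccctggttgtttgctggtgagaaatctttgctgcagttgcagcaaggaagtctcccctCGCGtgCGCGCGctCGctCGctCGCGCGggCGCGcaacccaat
Ngly1, plus strand, chr14:16249114-16249313: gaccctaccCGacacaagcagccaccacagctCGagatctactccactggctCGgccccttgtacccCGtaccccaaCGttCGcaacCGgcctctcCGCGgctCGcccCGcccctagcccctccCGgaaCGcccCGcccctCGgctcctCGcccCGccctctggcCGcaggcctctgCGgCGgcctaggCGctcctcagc
Olfr720, minus strand, chr14:14176081-14176280: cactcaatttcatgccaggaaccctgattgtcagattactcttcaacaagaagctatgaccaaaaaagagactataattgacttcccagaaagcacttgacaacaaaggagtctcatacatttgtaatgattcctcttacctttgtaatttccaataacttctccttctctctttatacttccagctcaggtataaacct
Ccdc85c, minus strand, chr12:108275394-108275593: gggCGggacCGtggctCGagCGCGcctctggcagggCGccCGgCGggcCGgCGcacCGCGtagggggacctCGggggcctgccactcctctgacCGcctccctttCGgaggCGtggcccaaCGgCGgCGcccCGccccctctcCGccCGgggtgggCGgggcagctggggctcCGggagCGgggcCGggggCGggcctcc
Eef2, plus strand, chr10:81176431-81176630: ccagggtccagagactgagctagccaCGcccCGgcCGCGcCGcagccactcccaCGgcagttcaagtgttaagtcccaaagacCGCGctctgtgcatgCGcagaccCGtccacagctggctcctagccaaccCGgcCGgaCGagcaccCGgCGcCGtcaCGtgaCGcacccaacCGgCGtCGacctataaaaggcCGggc
The 2 promoters of falling windows hold 27 (Ccdc85c) and 22 (Eef2) CG pairs with GC contents of 83.0 and 68.0%. The CG-rich promoters of Gria4 (16 pairs, 61.0%) and Ngly1 (21 pairs, 73.0%) start in windows that rose by 0.93 and 0.87, and that of Olfr720 has 0 pairs and 37.0% GC. Of 25748 autosomal promoters of this length 89.2% hold at least 1 CG pair and 35.4% at least 10, and the median is 5. These were taken as 1 per gene and exceed the 21887 protein-coding genes, so other gene types are among them. They are thus not a matched background for the protein-coding genes shown. A CG pair here is the letters CG, which read the same on both strands, and the match says nothing of methylation.

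Across the autosomes the share of lower windows in 3Rb grew with the number of genes. The share of windows called lower was 10.5% of 20023 windows without a protein-coding gene, 18.8% with 1, 28.8% with 2, 40.5% with 3, 54.3% with 4, 64.7% with 5 and 71.7% of 159 windows with 6 or more. The share called higher went from 21.2% to 2.52% over the same steps, and the median difference from 0.03 to −0.21. Among windows with 3 or more genes 56.0% were called, 47.4% lower and 8.57% higher.

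**Figure D4:**
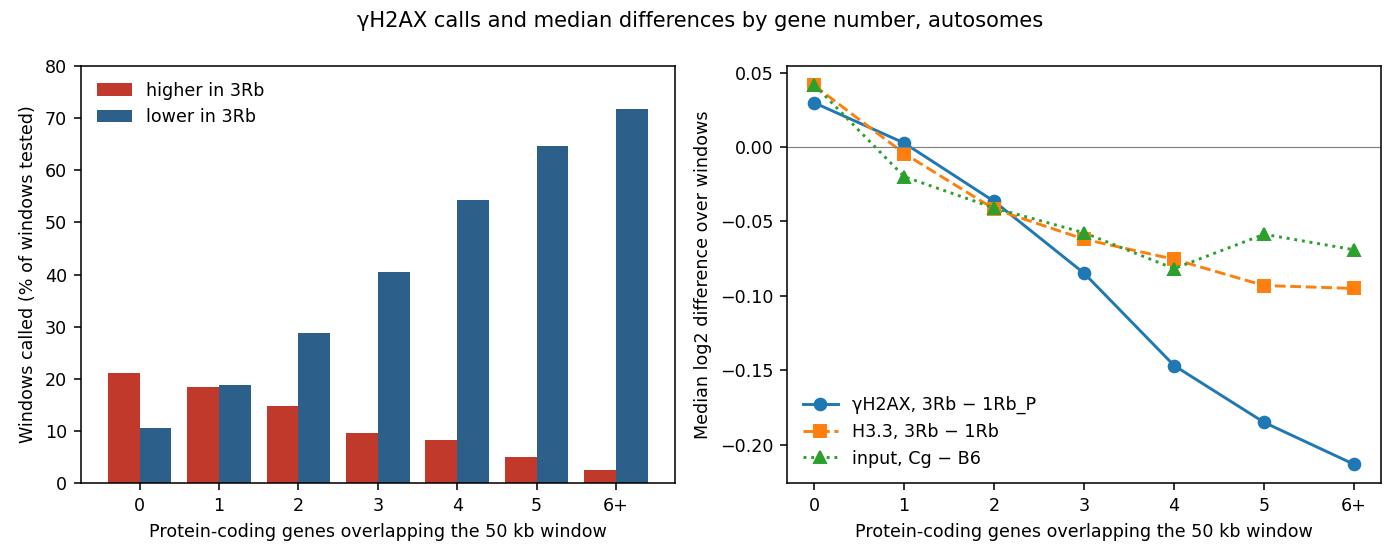
Left, share of autosomal windows called higher or lower in 3Rb (vertical axis, % of windows tested) by the number of overlapping protein-coding genes (horizontal axis). Right, median log2 difference over the same windows for γH2AX, for H3.3 in separate libraries and for the Cg over the B6 input. All 3 fall from 0 genes to 4, and γH2AX reaches −0.21 at 6 or more against −0.10 and −0.07.

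H3.3 and the inputs moved in the same direction with gene number. The median H3.3 difference went from 0.04 without a gene to −0.10 at 6 or more, and the Cg over B6 input ratio from 0.04 to −0.07. Across 47962 windows the γH2AX difference correlated with the H3.3 difference (Pearson r = 0.49, Spearman rho = 0.44) and with the input ratio (0.32 and 0.36). These are descriptions over windows of shared libraries, and neighbouring windows are not independent. The part of base composition or of library preparation in the γH2AX difference was not tested.

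Per library, the log2 ratio of gene-rich windows (3 or more genes) over gene-free windows was 0.02, 0.07 and 0.03 in 3Rb and 0.21, 0.21 and 0.12 in 1Rb_P. The groups did not overlap (exact permutation p = 0.1, the smallest possible), although 1Rb_P replicate 3 stood nearer to 3Rb. The B6 γH2AX library stood at 0.18 and the inputs at 0.17 to 0.26, so 2 libraries of 1Rb_P lay within the range of the inputs, and those of 3Rb lay below every input. H3.3 libraries had far higher ratios, at 0.94 to 1.13.

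By chromosome the ratio was lower in 3Rb on 14 of 19 autosomes (73.7%) and higher on 0 by limma (0 also at an unadjusted p under 0.05), and all 19 differences were below 0. The largest were on 15 (−0.21 ± 0.03), 10 (−0.20 ± 0.03), 17 (−0.20 ± 0.03) and 4 (−0.19 ± 0.03). On 10, the ratio was −0.09, −0.05 and −0.07 in 3Rb and 0.17, 0.16 and 0.06 in 1Rb_P. It was not called on 6, 13, 14, 16 and 18, where the differences were −0.02 to −0.06. The library order was shared by the chromosomes, so these 19 are not independent. Here limma used a common spread, with the same SE of 0.03 on each. The SD of the 1Rb_P libraries ran from 0.02 on 13 to 0.08 on 15. Without 1Rb_P replicate 3, 18 were called, which include 6, 13, 14 and 16, and with all 9 carrier libraries 7. Chromosome 2 (−0.07) lost its call without 1Rb_P replicate 1 or 2 or 3Rb replicate 1 or 3 (adjusted p 0.15 to 0.19), and 12 without 3Rb replicate 1 or 3 (0.059 and 0.052).

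**Figure D5:**
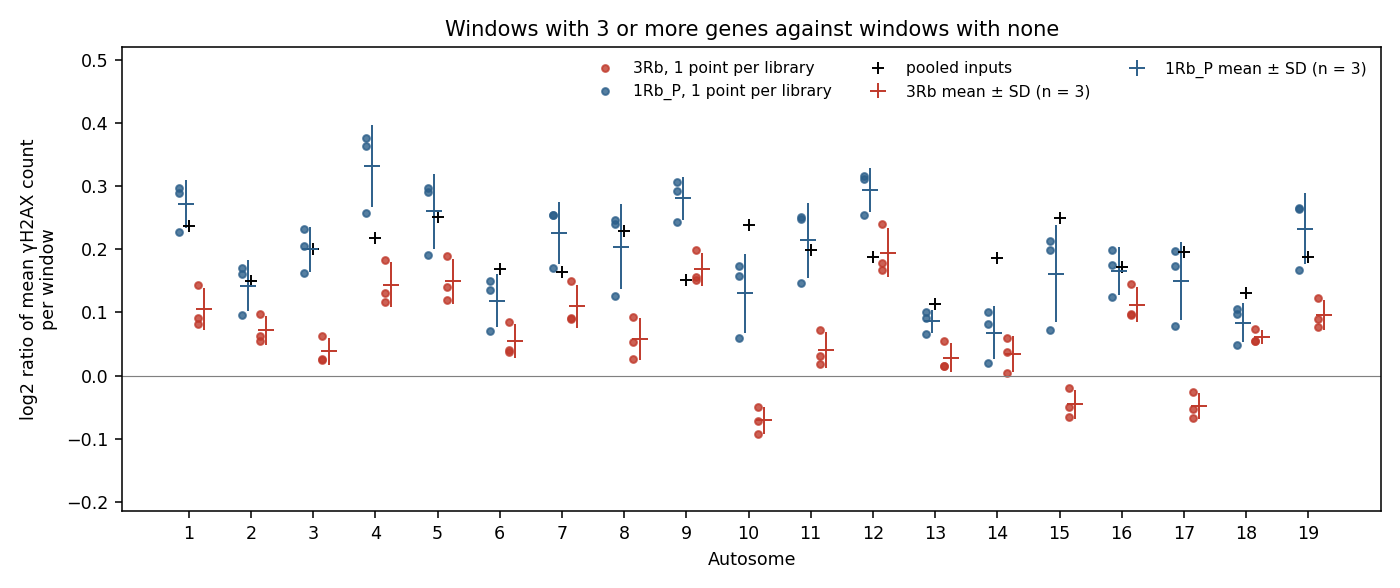
Log2 ratio of mean γH2AX count per window, windows with 3 or more genes over windows with none (vertical axis), for the 19 autosomes (horizontal axis). Points are libraries, crosses with bars are means ± SD (n = 3), and black plus signs are the pooled inputs. The mean of 3Rb lies below that of 1Rb_P on all 19.

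At the joined ends, position was set beside gene content. In the proximal 10 Mb of 1, 3, 9 and 14 the median difference was 0.65 in 385 windows without a gene, 0.64 in 349 with 1 and 0.38 in 54 with 2, so the gain was present at each of these gene numbers. In the proximal 10 Mb of 8 and 12 it was −0.17 without a gene (67.1% lower), −0.22 with 1 (84.5% lower) and −0.23 with 2 (78.8% lower). Beyond 43 Mb, away from every centromere, the gene-rich to gene-free ratio was still lower in 3Rb, at 0.03, 0.09 and 0.05 against 0.21, 0.21 and 0.12 in 1Rb_P.

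Calls also differed by gene length and by promoter GC, for which windows were put into 5 groups of like size. Promoters of 18 were not used here. Windows whose longest gene exceeded 500 kb were 24.4% higher and 9.11% lower, whereas those with a longest gene of 20 to 50 kb were 12.8% higher and 33.4% lower. In the group of lowest promoter GC (up to 46.7%) 24.8% were higher and 9.33% lower. The share of lower windows was 24.8, 39.1, 39.9 and 33.4% in the next 4 groups, so it was greatest short of the top. Among windows with 3 or more genes, 19.02% were higher and 10.4% lower in the lowest group, against 6.42% and 61.0% in the one below the top.

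The gene lists differed among themselves, and each is read beside the 16.8% higher and 23.5% lower (40.3% in all) among autosomal windows with at least 1 gene. Of 575 windows with olfactory receptor genes, which stand in large arrays of small genes, 155 were higher (27.0%) and 29 lower (5.04%), with a median of 0.08; 28 of the windows lay in the proximal 10 Mb of 1, 3, 9 and 14. Olfr720 led with 21.9, 20.6 and 20.5 CPM in 3Rb and 11.2, 12.5 and 12.8 in 1Rb_P. It lies beyond that stretch but inside the long run of higher windows on 14 (6750001 to 19400000). Vomeronasal receptors, the pheromone receptor family, had 93 higher and 37 lower of 324, and H3.3 at these windows had a median of 0.06. Reads of both families are uncertain where members are near-identical.

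Housekeeping, Hox, histone and keratin genes stand in gene-dense windows, with a median of 3 or 4 genes, and are read beside the 40.5% lower at 3 genes and 54.3% at 4. Housekeeping windows (median 3 genes) were 54.2% lower, above the 40.5% at that gene number, over only 24 windows. Hox (median 4, 53.8%), histone (median 4, 44.4%) and keratin windows (median 3, 33.3%) were near or below the share for theirs. Housekeeping genes had 2 higher and 13 lower of 24 (median −0.13), led by Eef2 with 13.98, 14.5 and 14.6 CPM in 3Rb and 21.3, 20.2 and 17.7 in 1Rb_P (−0.46 ± 0.05). Hox clusters, which pattern the body axis, had 0 higher and 7 lower of 13, and replication-dependent and linker histone genes 0 and 8 of 18. At an unadjusted p under 0.05, and with DESeq2, the higher windows of both lists were 0 as well. Keratins had 2 and 19 of 57. Zinc finger genes had 112 and 116 of 525, of which 21 windows lay in the proximal 10 Mb of 1, 3, 9 and 14. Protocadherins and cadherins had 37 and 46 of 240, with Cdh13 (8) at −0.54.

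Genes of meiosis were mixed. Of 63 windows at recombination genes 8 were higher and 13 lower (median 0.04), and of 42 at synapsis, axis and cohesin genes 8 and 6. Mcmdc2, a helicase-like protein needed for meiotic recombination, lies in the gained end of 1 (9900001 to 9950000). Its window held 30.3, 30.8 and 29.1 CPM in 3Rb and 17.2, 17.8 and 17.4 in 1Rb_P, a difference of 0.78 ± 0.05, with H3.3 at −0.04. Msh5, a crossover factor (17), fell by 0.43 ± 0.05, and Hsf2bp, a BRCA2 partner, by 0.35.

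Terb1, which ties meiotic telomeres to the nuclear envelope (8), rose by 0.36 ± 0.05 and Hormad2, which marks unsynapsed axes (11), by 0.28 ± 0.05. Kash5, which links those telomeres to dynein, fell by 0.34. Damage signalling and silencing genes had 4 higher and 11 lower of 45, with Mdc1, the reader of γH2AX, at −0.30.

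Marker genes of testis cell types had more lower than higher windows in each list, as had all autosomal windows with a gene (23.5 against 16.8%). Spermatid genes had 7 higher and 10 lower of 28, with the protamines Prm1 and Prm2, which share a window, at −0.33. Spermatogonial genes had 1 and 11 of 35, and Sertoli genes 3 and 6 of 21. The 3 Sertoli genes with the smallest p were Cldn11, a tight junction protein on 3, Amh (10) and Dhh (15). Cldn11 stood at 0.51 ± 0.05, Amh at −0.33 and Dhh at −0.21. The Cldn11 window lies inside the unbroken stretch of higher 1 Mb bins on 3, from 3 to 36 Mb. Of the 21 Sertoli windows, 2 lay in the proximal 10 Mb of the chromosomes joined only in 3Rb. Leydig genes had 0 higher (0 also unadjusted and with DESeq2) and 7 lower of 13, and peritubular, vessel and blood genes 1 and 6 of 18. Imprinted genes had 20 and 17 of 110. A count of γH2AX over a marker gene does not measure its expression, and the share of each cell type was not tested.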

How the data were processed

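Whole-testis chromatin was immunoprecipitated and sequenced, per the labels' protocols. The deposited values are raw read counts per 50 kb window of mm10, 54520 windows on 21 chromosomes, with a table for each library. The tools named are CASAVA 1.8 and BWA, per the submitters' processing notes; settings and the handling of duplicate or multiply mapping reads are not given in the sources used here. Groups came from the titles. The members and gene lists were chosen with earlier results of these data known.

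The 6 libraries were fitted with edgeR 4.0.16 (R 4.3.3) by its quasi-likelihood test with TMM scaling, for the 53118 windows that average 10 counts or more. Across all of these windows 9651 were called higher and 10251 lower (18.2 and 19.3%). The same test was run on sums per chromosome (21) and per distance band (132). Within-library ratios were tested with limma 3.58.1 over 19 autosomes. Single values used two-sided exact permutation tests. Windows whose pooled input lay above 5 times or below 0.2 times its median (1503) were left out of sums, ratios, most medians and named windows. They stayed in the counts over all windows, over the 48016 autosomal windows and over whole chromosomes. They also stayed in the median sizes of called windows, the median shift with library totals and the γH2AX median of Y. Input ratios had 0.5 added to each count. Genes (21887 protein-coding) and promoters came from RefSeq, GRCm38.p6, the assembly of mm10; 17492 genes had a promoter sequence, 250 bases before to 50 after the start. A window names the genes it overlaps; exon or intron is not resolved at 50 kb.

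Named windows: called windows of one direction, adjacent or with 1 between, were merged, windows of unusual input left out, and autosomal regions kept whose best window overlaps a protein-coding gene and whose groups do not overlap. The 10 regions per direction with the smallest adjusted p were taken, at most 1 per chromosome, plus the best per direction on 1, 3, 8, 9, 12 and 14, up to 2 genes each, and up to 3 members per gene list by p. Scripts were tested on simulated data. Alternatives were library totals, DESeq2 1.42.0, all 9 carrier libraries, a replicate block, each library left out, no minimum count, other input filters, proximal widths and gene definitions.

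H3.3 came from 3 libraries each of 3Rb and 1Rb (the 1Rb_M cross) at 6 weeks. One input is titled 1Rb_M but labelled with the cross of 1Rb_P. X and Y windows entered the fits but are not described by position.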

Additional observations from a re-analysis of the deposited data

How the results depend on the processing

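DESeq2 called 6050 windows higher and 7718 lower, and the fit with all 9 carrier libraries 5369 and 6809. No window called in one direction was called in the other under any alternative. Leaving out 1 library gave 7377 to 9183 windows higher and 8605 to 10725 lower. With all 9 carrier libraries 9 chromosomes, 54 bands and 7 gene-rich to gene-free ratios were called, against 14, 87 and 14. Leaving out 1 library gave 12 to 16 chromosomes, 77 to 89 bands, 14 to 16 proximal ratios and 12 to 18 gene ratios.

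With library totals the median of the proximal 10 Mb of 1, 3, 9 and 14 moved from 0.64 to 0.62 and that of the unjoined autosomes from 0.04 to 0.0213; without 1 library the latter was 0.03 to 0.04 (0.0277 to 0.0439). Library totals shifted the median of all windows by −0.02. Reversed values were those of the chromosome 2 sum with windows of unusual input kept (0.0808) and of proximal ratios. The latter were 2 (−0.043) and 11 (−0.0073) with those windows kept, 7 at 5 Mb (−0.0042) and 20 Mb (−0.0181), and 6 (0.0485), 17 (0.0346) and 19 (0.0340) at 20 Mb. With those windows kept the proximal ratio of 9 was 0.26 (0.73 without them) and that of 12 −0.07 (−0.14). The causes were not tested. DESeq2 called 83 olfactory, 43 vomeronasal, 12 cadherin, 9 imprinted and 5 recombination gene windows higher, against 155, 93, 37, 20 and 8. The 23 named windows kept their direction and call in all 12 alternatives. They were chosen for small adjusted p in the main fit, which shares its libraries with the alternatives, so this is no separate check.

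The replicate numbers did not pair the libraries: same-number correlations of deviations were −0.22, 0.10 and −0.10, and of the 3 numbers only the libraries of replicate 2 correlated best with each other. With a replicate block 9130 windows were higher and 10015 lower, and chromosomes, bands, proximal and gene ratios had 14, 81, 15 and 15 calls. With 3 libraries per group, no input from 3Rb and 50 kb windows, depth at the median window gives a single library a counting error of 3.60 to 3.97%.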
